A study of Vitis vinifera with 27 samples.

Results

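Transcripts of berries of the table grapes Italia and Xiangfei were compared at EL35, the stage at which berries start to colour and to soften. The comparison took the 3 Italia and the 3 Xiangfei samples that the labels place at EL35, which are 6 of the 27 samples of the series. The other samples are the same cultivars at the end of veraison (EL36) and at harvest (EL38), and Zaomeiguixiang, another Muscat cultivar, at all 3 stages. Italia and Xiangfei are both Vitis vinifera. Both have Muscat aroma, and that of Xiangfei is the stronger. No vine was treated. All vines grew under plastic in 1 vineyard and were sampled in 1 season, and each replicate pooled many berries picked at random. The stage was assigned when the first berries coloured and softened. At that point the berries also differed in ripeness, since Italia had less soluble solids and more acid than Xiangfei in the study's own measurements, which are not analysed here. Cultivar and ripeness cannot be told apart in any result of the comparison. RNA came from the berries, and whether seeds were taken out first is not given in the sources used here. In such pooled tissue, fewer cells of a type and less RNA per cell cannot be told apart.

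Around veraison a grape berry changes from a hard, acid, green organ into a soft and sweet one. Its cell walls are loosened by enzymes that act on xyloglucan, cellulose and pectin, sugars are imported and stored as hexoses, malate is used up, and small ripening and defence proteins such as thaumatin-like protein and chitinase build up. Muscat aroma comes from monoterpenes, whose precursors are made in the plastid by the methylerythritol phosphate (MEP) pathway, which the enzyme deoxyxylulose phosphate synthase (DXS) opens.

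At EL35 more genes were called lower than higher in Italia berries. Of 16802 genes tested, 302 (1.8%) were called, 75 higher in Italia (0.446%) and 227 lower (1.35%). A gene was called where Italia and Xiangfei differed by at least 1 on the log2 scale and edgeR's quasi-likelihood test gave a p of at most 0.05 after Benjamini-Hochberg adjustment. The median log2 fold change was 5.45 in the genes called higher and -4.08 in those called lower, against 0.09 over all genes tested, and 57 and 176 of them reached 3 in size. FPKM values (fragments scaled by transcript length and by library size) of the 2 groups did not overlap in any of the 302 called genes, and they did not overlap in 19.3% of all genes tested. DESeq2 called 1221 genes (5.05%), 1.5% higher and 3.54% lower, and they included all 302. At an adjusted p of at most 0.001 edgeR called 0 genes, although 2399 had an unadjusted p under 0.05, and DESeq2 called 467 (1.93%), 0.471% higher and 1.46% lower. The count depended on single samples. It was 258 without Xiangfei replicate 1, 35 without Xiangfei replicate 2, 24 without Xiangfei replicate 3, 86 without Italia replicate 1, 56 without Italia replicate 2 and 451 without Italia replicate 3. In these fits 18 of the 302 genes, 5 higher and 13 lower, were called in all 6. A further 95 were called in 1 of the 6 and 8 in none. Those called in 1 include CCD1, LOC100243643, LOC100242544, LOC100854531, LOC100253820, LOC100259386, LOC100257926 and LOC100263633, whose values are given below. No called gene changed direction, which the lack of overlap between the groups had all but fixed beforehand.

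**Figure D1:**
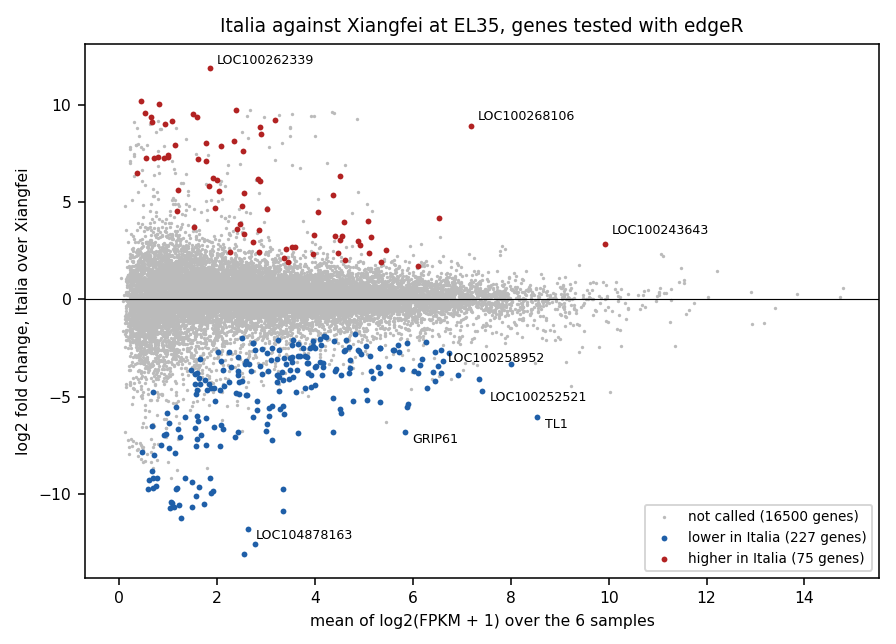
Log2 fold change of Italia over Xiangfei at EL35 (y axis) against the mean of log2(FPKM + 1) over the 6 samples (x axis) for the 16802 genes tested, with 1 point a gene. The 227 genes called lower are blue and the 75 called higher are red, and LOC100243643, LOC100268106 and TL1 are called genes at high levels.

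The 6 samples held between 20503873 and 23850610 expected counts, with 17146 to 21423 genes above 0. Italia replicate 3 stood apart. Transcripts of 39 genes annotated as seed storage proteins, oil body proteins or embryo maturation proteins made up 7.16% of its counts and 0.0511% to 0.0946% of the counts in the other 5 samples. The vicilin-like gene LOC100852645 was at 19962 FPKM in it and at 0.44 to 19.9 in the others. Its Pearson's r with the other Italia samples, over log2(FPKM + 1) across genes, which are not independent replicates, was 0.875 and 0.882, against 0.973 between those. Xiangfei replicate 1 had 21057 genes above 0 and an r of 0.931 and 0.925 with the other Xiangfei samples, against 0.968 between those. Of 24 genes annotated as seed coat markers (leucoanthocyanidin reductase, anthocyanidin reductase and TRANSPARENT TESTA 12), 2 were at 0 in all 6 samples, and the summed level was 349 FPKM in Xiangfei replicate 1 and 376 in Italia replicate 3, against 84.1 to 146 in the other 4. The part of seed or seed coat RNA in the results was not tested, and the comparison is repeated without Italia replicate 3 further on.

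Among genes of the cell wall, most of those called were lower in Italia. The list of expansins and enzymes of xyloglucan and cellulose also holds other wall proteins, such as fasciclin-like arabinogalactan and COBRA-like proteins. Of its 174 genes, 98 were tested, 12 were called lower and 1 higher (13.3% called, against 1.8% of all genes). The median log2 fold change was -0.67, with 30 of the 98 above 0. Xyloglucan endotransglucosylase/hydrolases (XTHs), which cut and rejoin the xyloglucan chains that tether cellulose, made up 7 of the 12. This family was singled out after its values were seen. LOC100241056 (XTH 22) was at 114, 20.9 and 32.6 FPKM in the Xiangfei replicates and at 0.34, 0.6 and 0.39 in the Italia replicates (log2 fold change -6.79, standard error 0.682, adjusted p = 0.00449), and it was called in all 6 fits that left out a sample. LOC100267763 (XTH 30), the called member with the highest level in Xiangfei, was at 150, 371 and 241 FPKM in Xiangfei and at 10.8, 25.9 and 23.3 in Italia (-3.80, standard error 0.618, adjusted p = 0.0208). Every Italia sample lay far under every Xiangfei sample in both genes. LOC100251303, LOC100246166 and LOC100241056 stand next to each other in the gene order of RefSeq (assembly ASM3070453v1) and were all called lower. Of 26 XTH genes, 24 were above 0 in some sample and 17 were tested, and all 17 had a log2 fold change under 0, with a median of -3.80. The summed level of the family overlapped between the groups, at 3808 to 6142 FPKM in Xiangfei and 1761 to 5652 in Italia. Reads of near-identical XTH copies may be split unevenly by the counting, and the values of single members are uncertain to that degree.

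Single genes of other wall enzymes were lower as well. LOC100258952, annotated as expansin-like A2 (expansins loosen walls without cutting them), was at 288, 284 and 348 FPKM in Xiangfei and at 33.5, 15.2 and 22.9 in Italia (log2 fold change -3.73, standard error 0.499, adjusted p = 0.0105). It was the only expansin called of 13 tested, whose median was 0.80, and the summed level of the 23 expansin genes overlapped between the cultivars, at 2148 to 5188 FPKM in Xiangfei and 3239 to 11359.7 in Italia. The endoglucanase 12-like gene LOC100257176, of the family of cellulose-cutting enzymes, was at 10.8, 6.96 and 9.0 FPKM in Xiangfei and 0.31, 0.3 and 0.54 in Italia (-4.58, standard error 0.457, adjusted p = 0.00449). It was called whichever sample was left out. The partial endoglucanase 12-like gene LOC100853800 had 188 to 215 counts in the Xiangfei samples and 1 in each Italia sample, a ratio of 190 (95% exact counting interval 64.6 to 922, counting error only). KATAMARI1 homolog LOC100854486, a galactosyltransferase that adds galactose to xyloglucan, was the exception on this list. It had 2 counts in every Xiangfei sample and 233 to 389 in the Italia samples (7.21, standard error 0.644, adjusted p = 0.00449).

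Pectin enzymes and cell surface proteins followed. Of 129 genes on the pectin list 58 were tested, 4 were called lower and none higher (6.9% called), with a median of -0.43. The pectinesterase LOC100251413, which removes methyl groups from pectin, was at 43.5, 56.9 and 44.0 FPKM in Xiangfei and 4.91, 3.33 and 2.04 in Italia (log2 fold change -3.81, adjusted p = 0.0122). The beta-galactosidase LOC100259328 was at 83.9, 72.5 and 63.5 against 9.69, 13.9 and 19.9 FPKM (-2.41, adjusted p = 0.0187). In both genes the highest Italia value was under the lowest Xiangfei value. The polygalacturonase inhibitor LOC100232865 is a defence protein that binds fungal pectin-cutting enzymes. It was at 351, 757 and 985 FPKM in Xiangfei and 41.8, 63.8 and 24.5 in Italia (-4.08, adjusted p = 0.0311). Arabinogalactan proteins are glycoproteins of the cell surface, and the classical member LOC100252521 was at 478, 1491 and 749 FPKM in Xiangfei and 55.0, 25.6 and 30.2 in Italia (-4.72, adjusted p = 0.0189). The fasciclin-like member LOC100242544 was at 796, 1201 and 548 against 118, 81.3 and 54.4 FPKM (-3.34, adjusted p = 0.0367). It is also 1 of the 12 genes called lower on the list of expansins and enzymes of xyloglucan and cellulose. In this family, 5 of 17 genes tested were called lower and none higher, against 1.35% and 0.446% of all genes.

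The most abundant difference was in a ripening protein. TL1 encodes the thaumatin-like protein VVTL1, which builds up in ripening flesh. It was at 1456, 7003 and 3267 FPKM in Xiangfei and at 23.5, 141 and 21.7 in Italia (log2 fold change -6.04, standard error 1.21, adjusted p = 0.0449). It was called in 1 of the 6 fits that left out a sample, and without Italia replicate 3 the log2 fold change was -5.60 (adjusted p = 0.0578). GRIP61, named for its induction at grape ripening, was at 874, 381 and 505 FPKM in Xiangfei and 3.27, 5.49 and 6.46 in Italia (-6.81, standard error 0.499, adjusted p = 0.00159) and was called in all 6 fits that left out a sample. In both genes the lowest Xiangfei value was over the highest Italia value. In Zaomeiguixiang GRIP61 was at 1128 ± 1195 FPKM (SD, n = 3) at the same stage. Of 26 genes annotated as flesh markers of ripening (VVTL1, grip22, hexose transporters and invertases), 3 were at 0 in all 6 samples. Of the 17 tested, 2 were called, both lower, against 1.35% of all genes called lower. The median log2 fold change of the 17 was -0.47. The summed level of the 26 genes was 4955, 23017 and 14075 FPKM in the Xiangfei replicates and 2099.7, 2605 and 646 in the Italia replicates. This sum includes TL1 and is weighted to the genes at the highest levels, so it is not separate from the values of TL1.

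**Figure D2:**
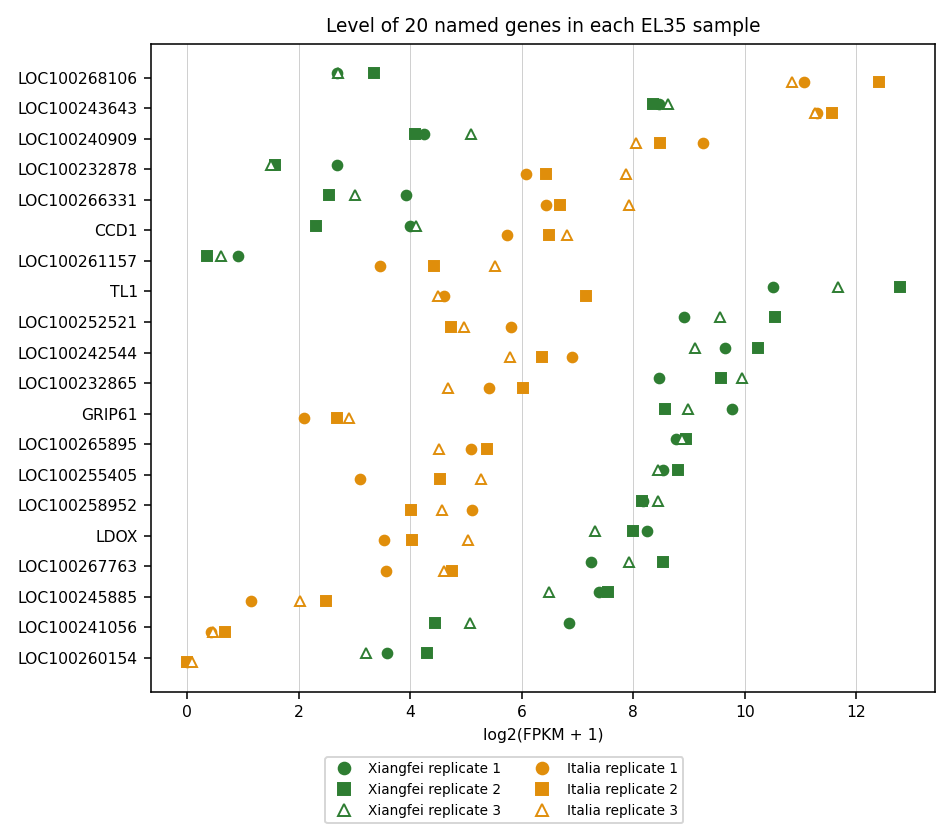
Level of 20 named genes as log2(FPKM + 1) (x axis) in each of the 3 Xiangfei samples (green) and 3 Italia samples (orange) at EL35, with the replicate given by the marker. The groups do not overlap in any of these called genes, which include CCD1 among those higher in Italia and TL1 and GRIP61 among those lower.

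Sugar transporters went in different directions. LOC100243643, a bidirectional sugar transporter of the N3 (SWEET) type that lets sugar pass membranes down its gradient, was at 353, 327 and 395 FPKM in Xiangfei and at 2496, 3008 and 2433 in Italia (log2 fold change 2.85, standard error 0.563, adjusted p = 0.0418). Its level in Zaomeiguixiang at EL35 was 356 ± 100.3 FPKM (SD, n = 3). The SWEET14-like gene LOC100262834 was at 0.0, 0.18 and 0.32 against 13.5, 7.05 and 21.1 FPKM (6.14, adjusted p = 0.0289). The hexose transporter LOC100233083 was lower in Italia, at 8.5, 6.25 and 4.84 FPKM against 136, 95.2 and 55.9 in Xiangfei (-3.77, adjusted p = 0.00695). Over the 60 tested of 94 genes of sugar transport and sucrose metabolism, 2 were called higher and 1 lower (5.0%, against 1.8% of all genes). The median was 0.06. In acid metabolism the NADP-dependent malic enzyme LOC100249166, which turns malate into pyruvate, was at 28.1, 44.7 and 37.1 FPKM in Xiangfei and 2.66, 1.74 and 2.51 in Italia (-4.10, adjusted p = 0.00563). The tonoplast dicarboxylate transporter LOC100854531, of a family that moves malate into the vacuole, was at 0.0, 0.0 and 0.22 against 16.1, 13.1 and 4.31 FPKM (7.12, adjusted p = 0.0377). These were the only calls among 72 genes tested on the list of organic acids and vacuolar pumps (2.78%).

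Among defence genes a few were called, more of them lower than higher in Italia, as was so over all genes (227 lower and 75 higher). Of 68 tested genes of pathogenesis-related (PR) proteins, 4 were called lower and none higher (5.88% called), with a median of -0.29 and 28 of the 68 above 0. The polygalacturonase inhibitor LOC100232865 is 1 of these 4 and also 1 of the 4 called on the pectin list. PR-4 (LOC100255405), a chitin-binding protein, was at 370.2, 447 and 346 FPKM in Xiangfei and 7.6, 22.3 and 37.6 in Italia (log2 fold change -4.22, adjusted p = 0.0111). The class IV chitinase CHI4C, which cuts the chitin of fungal walls, was at 32.7, 43.2 and 55.9 against 0.05, 1.14 and 0.43 FPKM (-6.41, adjusted p = 0.0135). PR-1 (LOC100256515) had 87 to 292 counts in the Xiangfei samples and 0 in all 9 Italia samples, and was at least 53.7-fold higher in Xiangfei at EL35 against a floor of 3 counts a library. WRKY factors, transcription factors best known from defence responses, had 4 of 38 tested members called lower and none higher (10.5% called), with a median of -0.72. WRKY 33 (LOC100243352) was at 96.7, 151 and 118 FPKM in Xiangfei and at 21.7, 28.1 and 32.7 in Italia (-2.24, adjusted p = 0.0411, and 0.0519 without Italia replicate 3). WRKY 40-like LOC100253480 was at 40.2, 50.3 and 61.7 against 0.06, 2.33 and 0.78 FPKM (-5.63, adjusted p = 0.0303). Of 317 tested disease resistance genes, which encode receptors of pathogen proteins, 7 were called lower and 3 higher (3.15%, against 1.8% of all genes). Their median was -0.55, with 116 of the 317 above 0. At the later stages this list leaned the other way. At EL36 4 of 296 were called higher and 2 lower (0.412% and 0.871% of all genes), with a median of 0.40. At EL38 13 of 316 were called higher and 2 lower (0.906% and 1.74% of all genes), with a median of 1.09. RGA3 (LOC104878831) had 392 to 579 counts in Xiangfei and 1, 0 and 0 in Italia, a ratio of 1457 (95% exact counting interval 261 to 57577). The neighbouring gene LOC104878832 had 0 counts in Italia. BGI_novel_G002261, annotated as resembling At5g66900, had 88 to 182 counts in Italia and 0 in Xiangfei, at least 40.7-fold.

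Among genes of the aroma precursors 1 was called. Of 12 MEP genes, 11 were tested and 1 was called (9.09%, against 1.8% of all genes). This was BGI_novel_G000732, one of the DXS genes by its KEGG assignment and at a very low level, with 0.91 to 1.98 FPKM in Xiangfei and 0 in every Italia sample of all 3 stages. It was at least 33.8-fold higher in Xiangfei at EL35, and it was called in 1 of the 6 fits that left out a sample. The DXS gene with the highest level, LOC100249323, was at 44.8, 43.8 and 39.3 FPKM in Xiangfei and 41.2, 47.2 and 26.2 in Italia (log2 fold change -0.16, standard error 0.417, adjusted p = 0.912). LOC100252520 was at 12.5, 7.97 and 9.06 against 9.07, 9.9 and 12.8 FPKM (0.09, standard error 0.322, adjusted p = 0.937). The groups overlapped in both. LOC100268079 was at 2.81, 1.91 and 2.1 against 5.71, 6.62 and 4.87 FPKM without overlap and without being called (1.35, standard error 0.435, adjusted p = 0.189). LOC100247834, at a low level, was at 0.89, 1.39 and 1.04 against 0.0, 0.66 and 0.52 FPKM (-1.61, standard error 1.3, adjusted p = 0.65). By edgeR, none of 23 tested genes of the mevalonate pathway was called (1 had an unadjusted p under 0.05, and DESeq2 called 0), with a median of -0.11. Of 45 terpene synthases, which make the terpenes themselves, 18 were above 0 in some sample and none reached the level for testing. Their summed level was 28.1 FPKM in Xiangfei replicate 1 and 0.0 to 2.62 in the other 5 samples.

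Among enzymes of other volatiles, CCD1, which cuts carotenoids into norisoprenoids, was higher in Italia, at 52.2, 89.2 and 112 FPKM against 15.0, 3.97 and 16.3 in Xiangfei (log2 fold change 2.81, adjusted p = 0.0398). Lipoxygenases open the path from fatty acids to leaf aldehydes and alcohols. LOXO was at 30.5, 46.7 and 29.3 FPKM in Xiangfei and 6.1, 5.78 and 11.7 in Italia (-2.33, adjusted p = 0.0336), and the chloroplast 13S-lipoxygenase LOC100257867 at 3.2, 9.58 and 11.7 against 0.15, 0.02 and 0.06 (-7.16, adjusted p = 0.00964). Alcohol dehydrogenase LOC100255814 was at 3.05 to 4.29 FPKM in Xiangfei and 0.0 to 0.04 in Italia (adjusted p = 0.0164). On this list 1 of 51 tested genes was called higher and 3 lower (7.84%).

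Flavonoid genes were split. LDOX, the leucoanthocyanidin dioxygenase that forms anthocyanidins, was at 302, 254 and 159 FPKM in Xiangfei and at 10.5, 15.4 and 31.7 in Italia (log2 fold change -3.71, standard error 0.465, adjusted p = 0.00811). Its level in Zaomeiguixiang at EL35 was 359 ± 96.2 FPKM (SD, n = 3). The gene LOC100251364, annotated as flavonol synthase/flavanone 3-hydroxylase, was at 0.54, 0.04 and 0.0 against 15.4, 17.4 and 4.99 FPKM (6.27, adjusted p = 0.0372). LOC100264239, with the same annotation, was at 88.7, 78.5 and 124 FPKM in Xiangfei and 872, 811 and 212 in Italia, and was called only without Italia replicate 3 (adjusted p = 0.0145, against 0.104). The phenylalanine ammonia-lyase LOC100263160, of the enzymes that open phenylpropanoid synthesis, was at 0.66, 3.53 and 3.66 against 0.0, 0.04 and 0.0 FPKM (adjusted p = 0.0411, and 0.0562 without Italia replicate 3). In all, 1 of 84 tested genes was called higher and 3 lower (4.76%, against 1.8% of all genes). The chalcone synthase gene CHS3, of the enzymes that form the flavonoid skeleton, was highest in the samples with the highest sums of seed coat markers, Xiangfei replicate 1 and Italia replicate 3. It was at 724, 101 and 97.5 FPKM in Xiangfei and 7.51, 2.36 and 1021 in Italia, so that the groups overlapped (log2 fold change 0.12, adjusted p = 0.984), and without Italia replicate 3 the adjusted p was 0.0323.

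Enzymes that modify small molecules were called in both directions. Of 69 tested cytochromes P450, 3 were called higher and 3 lower (8.7%). LOC100261157, of the CYP71B34 type, was at 0.89, 0.28 and 0.52 FPKM in Xiangfei and 9.96, 20.6 and 45.1 in Italia (log2 fold change 5.45, adjusted p = 0.00563). LOC100257926, of the CYP89A2 type, was at 249.8, 308 and 135 against 5.46, 11.9 and 0.59 FPKM (-5.18, adjusted p = 0.05). LOC100263633 is of the CYP98A type, which hydroxylates the precursors of lignin, and was at 35.7, 17.8 and 12.7 against 2.68, 4.65 and 2.95 FPKM (-2.59, adjusted p = 0.029). Glutathione S-transferases attach glutathione to small molecules. LOC100232878 was at 5.45, 1.97 and 1.85 FPKM in Xiangfei and 66.4, 85.4 and 233 in Italia (5.38, adjusted p = 0.00449). Of 88 tested glycosyltransferases, 3 were called lower and none higher (3.41%, against 1.8% of all genes). LOC100264439 (UGT89B1-like) was at 362, 223 and 279 against 54.1, 47.5 and 22.6 FPKM (-2.74, adjusted p = 0.0392).

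Hormone genes were called in small numbers. Of 72 tested auxin genes, 2 were called, both higher in Italia (2.78%, against 1.8% of all genes). The auxin transporter LOC100253820 was at 0.92, 1.71 and 0.53 FPKM in Xiangfei and 18.3, 11.2 and 10.9 in Italia (log2 fold change 3.64, adjusted p = 0.027), and the auxin-induced gene LOC100259386 at 1.25, 0.08 and 0.8 against 22.2, 16.8 and 17.3 (4.81, adjusted p = 0.0279). The ethylene response factor ERF073 (LOC100252208) was the only one of 74 ethylene genes called (1.35%), at 276, 201 and 416 against 19.7, 26.1 and 42.7 FPKM (-3.45, adjusted p = 0.0137). LOC100263523, annotated as BRU1, a name given in soybean to a xyloglucan endotransglycosylase that brassinosteroid induces, was at 15.3, 16.6 and 12.7 against 1.13, 1.3 and 2.28 FPKM (-3.33, adjusted p = 0.0145).

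Several of the smallest p-values belonged to genes with many counts in 1 cultivar and few or none in the other. The cysteine desulfurase LOC104878163, an enzyme that frees sulphur from cysteine for iron-sulphur clusters, had 1594 to 1713 counts in the Xiangfei samples and 1, 0 and 0 in Italia, a ratio of 4685 (95% exact counting interval 840.4 to 185071, adjusted p = 0.00159). BGI_novel_G002336, annotated as an amino-acid acetyltransferase, had 824 to 1240 counts in Xiangfei and 0 in Italia (at least 313-fold, adjusted p = 0.00449). MLP-like protein 43 (LOC100245649) was at 125, 80.8 and 73.0 FPKM in Xiangfei and 1.01, 0.71 and 0.54 in Italia (log2 fold change -6.90, adjusted p = 0.00159). In the other direction, LOC100268106, for which the files give no protein name, was the gene with the largest excess in Italia, at 2137, 5443 and 1830.1 FPKM against 5.48, 9.23 and 5.57 in Xiangfei (8.91, standard error 0.951, adjusted p = 0.00469). It was at 102 ± 18.0 FPKM (SD, n = 3) in Zaomeiguixiang. LOC100262339 had 319 to 839 counts in Italia and 0 in all 9 Xiangfei samples (at least 157-fold). The strictosidine synthase-like gene LOC100853656 was at 0.52, 0.33 and 0.62 FPKM against 42.3, 38.1 and 22.3 (6.18, adjusted p = 0.00449), and the flavin-containing monooxygenase LOC100255688 at 0.05, 0.03 and 0.11 against 13.4, 22.6 and 12.7 (7.91, adjusted p = 0.00449). Over all genes, 54 had 0 counts in all 3 Italia samples and at least 10 in each Xiangfei sample, of which 52 were tested, 22 were called and 19 were at 0 in all 9 Italia samples of the series. The reverse held for 34 genes, of which 11 were called and 16 were at 0 in all 9 Xiangfei samples.

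**Figure D3:**
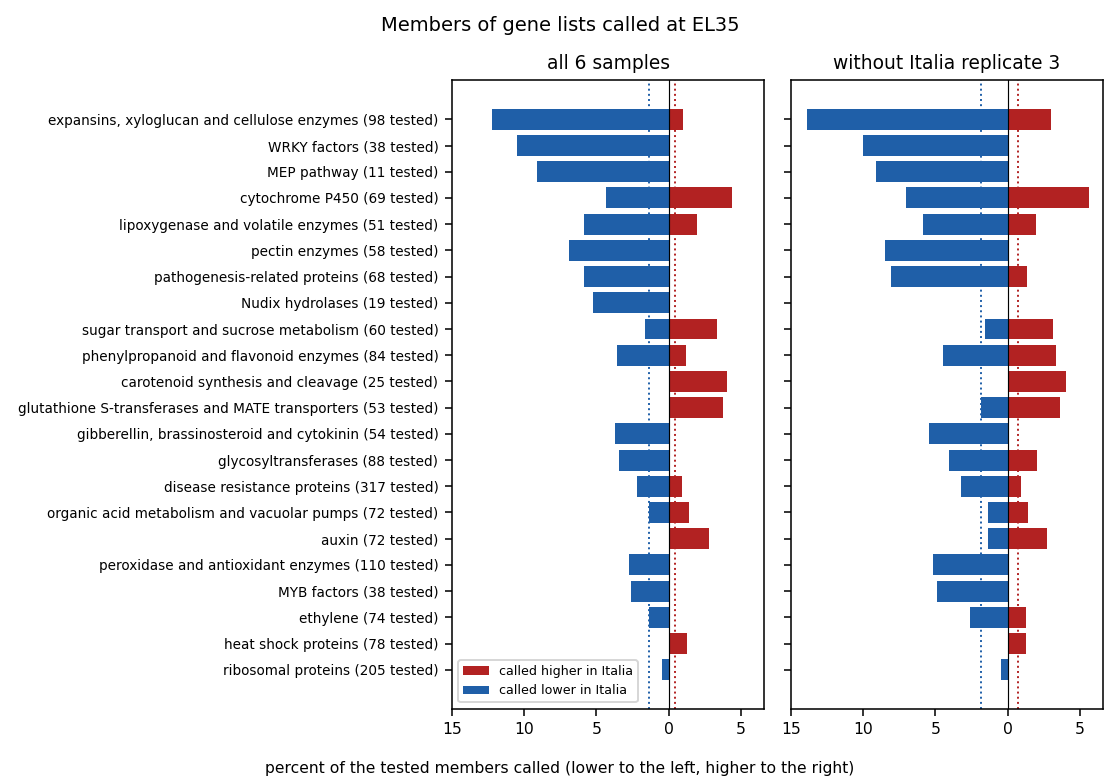
Percent of the tested members called, for the gene lists with a call among all 6 samples other than the seed lists, higher (red, to the right) or lower (blue, to the left) in Italia, with all 6 samples (left) and without Italia replicate 3 (right), and numbers tested for the 6 samples. Dotted lines give the share over all genes tested (0.446% and 1.35%, and 0.734% and 1.87% without the replicate), and on the list of expansins, xyloglucan and cellulose enzymes 12 of 98 genes are lower.

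Other groups had no call or few, where 1.8% of all genes were called. None of 64 tested photosynthesis genes was called by edgeR (5 had an unadjusted p under 0.05, DESeq2 called 0), with a median of 0.42. Their summed level was 6571, 4386 and 7968 FPKM in the Xiangfei replicates and 11396, 6956 and 2946 in the Italia replicates. Without that replicate 2 were called higher. None of 120 genes of histones, cyclins and cell division (11 under an unadjusted 0.05, DESeq2 1 higher and 4 lower) and none of 16 aquaporins (6 under 0.05, DESeq2 1 higher and 2 lower) was called, and the median of the aquaporins, the channels for water, was -0.72. Of 205 tested ribosomal protein genes 1 was called lower, L26-1 (LOC100242242), at 416, 263 and 591 against 6.1, 19.7 and 3.71 FPKM, and its level in Zaomeiguixiang was 2.38 ± 1.27 FPKM (SD, n = 3). Of 22 Nudix hydrolases, 19 were tested and 1 was called lower, LOC100254156 at 42.9, 55.6 and 49.4 against 8.08, 1.72 and 7.49 FPKM (log2 fold change -3.20, adjusted p = 0.0352, and 0.0518 without Italia replicate 3). Ascorbate oxidase homolog LOC100265895 was among the 3 genes called lower of 110 tested peroxidase and antioxidant genes, at 435, 493 and 466 FPKM in Xiangfei and 33.3, 40.8 and 21.8 in Italia (-3.88, adjusted p = 0.0137). Italia was higher in all its samples for the 2 called of 53 glutathione S-transferase and MATE transporter genes, for the 1 called of 78 heat shock protein genes and for CCD1 among 25 carotenoid genes. It was lower for 2 of 54 gibberellin, brassinosteroid and cytokinin genes and for 1 of 38 MYB factors. In edgeR no gene was called among 33 NAC factors (9 with an unadjusted p under 0.05, DESeq2 2 higher and 5 lower), 48 MADS-box and bHLH factors (5, DESeq2 1 higher and 3 lower), 48 lipid transfer and wax genes (14, DESeq2 0 higher and 3 lower), 17 abscisic acid genes (2, DESeq2 0) and 3 stilbene synthases (1, DESeq2 0 higher and 3 lower). The summed level of 56 genes annotated as skin markers, of which 6 were at 0 in all 6 samples and none of 23 tested was called, was 517 to 583 FPKM in Xiangfei and 192 to 336 in Italia.

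The comparison was repeated without Italia replicate 3. Of 17301 genes tested, 451 (2.61%) were called, 127 higher (0.734%) and 324 lower (1.87%). Of the 302 genes called with all 6 samples 274 (90.7%) were called again, and they make up 60.8% of the 451. All 274 kept their direction, which the lack of overlap between the groups had all but fixed beforehand. The median log2 fold change of all genes moved from 0.09 to -0.09, and the shared calls moved by 0.24 in size at the median and by at most 3.71. In 149 genes the log2 fold change was over 1 in size in both fits with opposite signs. The median log2 fold change of the 8 tested storage protein genes was 3.54 with the replicate and -2.08 without it, and that of the 18 tested genes of oil bodies and embryo maturation 5.95 and -1.39. The glutelin type-A 3 gene LOC100249816 was called lower in both fits, at 36.1, 103 and 101 FPKM in Xiangfei and 2.61, 3.06 and 14.8 in Italia. Its annotation is that of a seed storage protein, but its value in Italia replicate 3, the sample rich in seed transcripts, was under every Xiangfei value. Whether its transcripts came from seeds was not tested. The Lea14-A gene LOC100241458, of the late embryogenesis abundant proteins, was at 104, 196 and 178 against 9.17, 6.86 and 3.51 FPKM, with the lowest value in that replicate.

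In several of the 177 genes called only without the replicate, its value lay among or near those of Xiangfei. The amino acid permease LOC100242414 was at 27.6, 25.7 and 15.7 FPKM in Xiangfei, at 0.53 and 0.8 in Italia replicates 1 and 2 and at 11.1 in replicate 3 (log2 fold change -2.71, adjusted p = 0.23, and -4.99, adjusted p = 0.00425, without it). LOB domain protein 41 (LOC100261743), a transcription factor, was at 44.4, 11.6 and 36.5 FPKM in Xiangfei and 0.27, 0.32 and 33.6 in Italia (-1.66 and -6.53). The gene of LHCII type 1 (LOC100250504), a chlorophyll-binding antenna protein, was at 26.5, 11.0 and 16.6 against 75.4, 69.4 and 12.3 FPKM (1.69 and 2.17). The magnesium chelatase subunit CHLH, at the start of chlorophyll synthesis, was at 22.3, 11.8 and 10.5 against 44.3, 47.2 and 16.0 FPKM (adjusted p = 0.0317 without the replicate). In other genes it did not. BRU1 (LOC100232905), on the list of brassinosteroid genes, was at 15.1, 25.5 and 16.6 FPKM in Xiangfei and 0.08, 0.0 and 1.7 in Italia (-5.25 and -9.34). Italia replicates 1 and 2 held 1 and 0 counts of it, so the size of the second value is uncertain. EXORDIUM (LOC100259041), known in Arabidopsis from brassinosteroid-promoted growth, was at 562, 309 and 478 against 35.9, 39.6 and 4.15 FPKM (-3.96 and -3.45).

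**Figure D4:**
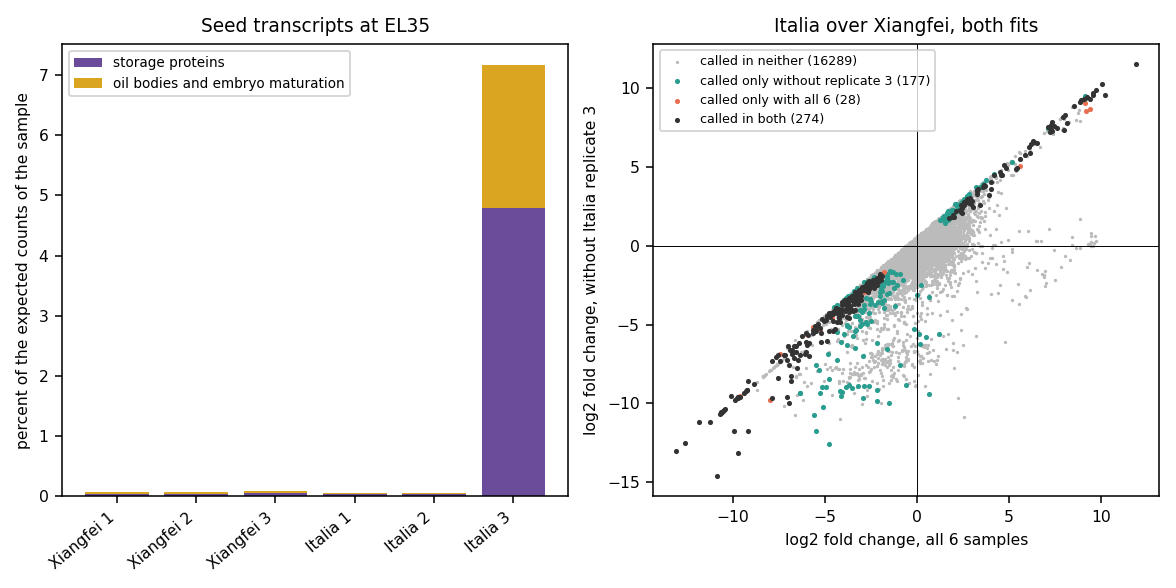
Left, percent of the expected counts of each EL35 sample in 11 storage protein genes (purple) and 28 genes of oil bodies and embryo maturation (yellow), which reach 7.16% together in Italia replicate 3. Right, log2 fold change of Italia over Xiangfei without that replicate (y axis) against that of all 6 samples (x axis), with 1 point a gene and 274 genes called in both (black).

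The difference between the cultivars was then followed to the later stages, whose samples enter none of the EL35 values. Of 75 genes called higher in Italia at EL35, 73 were tested at EL36 and 66 of these (90.4%) had the same sign. The same held for 68 of 71 (95.8%) at EL38. Of the 227 called lower, 169 of 212 (79.7%) and 167 of 216 (77.3%) had the same sign. The share with the same sign over all genes was not computed. The median log2 fold change of the genes called lower was -1.62 at EL36 and -1.60 at EL38, against -3.90 and -3.91 for the same genes at EL35, and that of the genes called higher was 3.14 and 3.37 against 5.38 and 4.81. These genes were selected by their EL35 values, which alone makes smaller later values likely, so the medians cannot show that the difference shrank. At EL36 215 genes were called (1.28%), 0.412% higher and 0.871% lower, of which 69 were also called at EL35 in the same direction, which is 32.1% of the EL36 calls and 22.8% of the EL35 calls. At EL38 449 were called (2.64%), 0.906% higher and 1.74% lower, and 79 were shared in the same direction, which is 17.6% of the EL38 calls and 26.2% of the EL35 calls. Another 1 was called in the opposite direction. At neither later stage were 43 of the genes higher and 161 of those lower in Italia called. Called the same way at all 3 stages were 21 genes higher (28.0% of 75) and 29 lower (12.8% of 227) in Italia. LOC100268106 was one of them, at 4525 ± 1233 FPKM (SD, n = 3) in Italia at EL36 and 5114 ± 1424 at EL38. GRIP61 was called at EL36 and not at EL38, where it was at 61.0, 41.3 and 3373 FPKM in Xiangfei and 7.99, 4.26 and 0.86 in Italia (log2 fold change -7.85, adjusted p = 0.0627). TL1 was at 580.4, 306 and 1318 FPKM in Xiangfei and 3665, 1513 and 1098 in Italia at EL38, where the groups overlapped (1.37, adjusted p = 0.275). Of the XTH genes 7 were called lower at EL35, 1 at EL36 and 0 at EL38 by edgeR, with medians of -3.80, -0.16 and -0.57. The family was singled out by its EL35 values, which makes smaller later values likely, and its change over the stages was not tested.

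Some differences at EL35 were not the same as later. In the fit of 18 samples the difference at EL35 was set against the mean of those at EL36 and EL38, and 28 of 19734 genes (0.142%) had an adjusted p of at most 0.05, 27 of them more negative at EL35 (0.137%) and 1 more positive (0.00507%). An unadjusted p under 0.05 was found for 2896 genes. The lean to 1 side depended on the method. For the same contrast DESeq2 called 425 of 26074 genes more negative and 388 more positive. With no filter on low counts edgeR called 65 more negative and 19 more positive. The 28 genes became 9, 6 and 40 without Xiangfei EL35 replicate 1, 2 and 3. They became 4, 12 and 13 without Italia EL35 replicate 1, 2 and 3, and 8 of these 13 were among the 28. Of the 227 genes called lower at EL35 17 were among them, and of the 75 called higher none. The smallest p was that of LOC100260154, a phenylalanine N-monooxygenase, which turns phenylalanine into its oxime. At EL35 it had 11.0, 18.8 and 8.29 FPKM in Xiangfei and 0.0, 0.0 and 0.06 in Italia, and at EL38 14.6, 21.6 and 29.0 against 2.99, 5.51 and 4.47. The difference at EL35 exceeded the later ones by -7.11 on the log2 scale (standard error 0.854, adjusted p = 0.00404). LOC100245885, an aminotransferase at the start of auxin synthesis from tryptophan, was at 167, 186 and 88.4 FPKM in Xiangfei and 1.22, 4.62 and 3.08 in Italia at EL35, and the groups overlapped at EL36 (87.1 to 411 and 97.6 to 217 FPKM) and at EL38 (88.7 to 404 and 154 to 296). The contrast was -5.34 (standard error 0.729, adjusted p = 0.00572). Chorismate mutase 2 (LOC100261098), which leads towards phenylalanine and tyrosine, was at 138, 148 and 109 against 11.8, 22.7 and 29.9 FPKM at EL35 and at 28.1 to 62.3 against 87.3 to 114 at EL38 (-3.28, standard error 0.448, adjusted p = 0.00572). The files give no function for LOC100245312 and LOC100266380, the other two of the 5 genes with the smallest p. LOC100245312 was at 136, 119 and 114 FPKM in Xiangfei and 10.6, 10.8 and 12.1 in Italia at EL35, and the groups overlapped at both later stages (-3.41, standard error 0.451, adjusted p = 0.00572). LOC100266380 turned its direction. It was at 34.1, 18.0 and 20.1 FPKM in Xiangfei and 3.2, 3.5 and 8.04 in Italia at EL35, and at 2.76, 3.14 and 6.3 against 11.6, 23.0 and 20.0 at EL38, where it was called higher in Italia (log2 fold change 1.84, adjusted p = 0.0449).

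**Figure D5:**
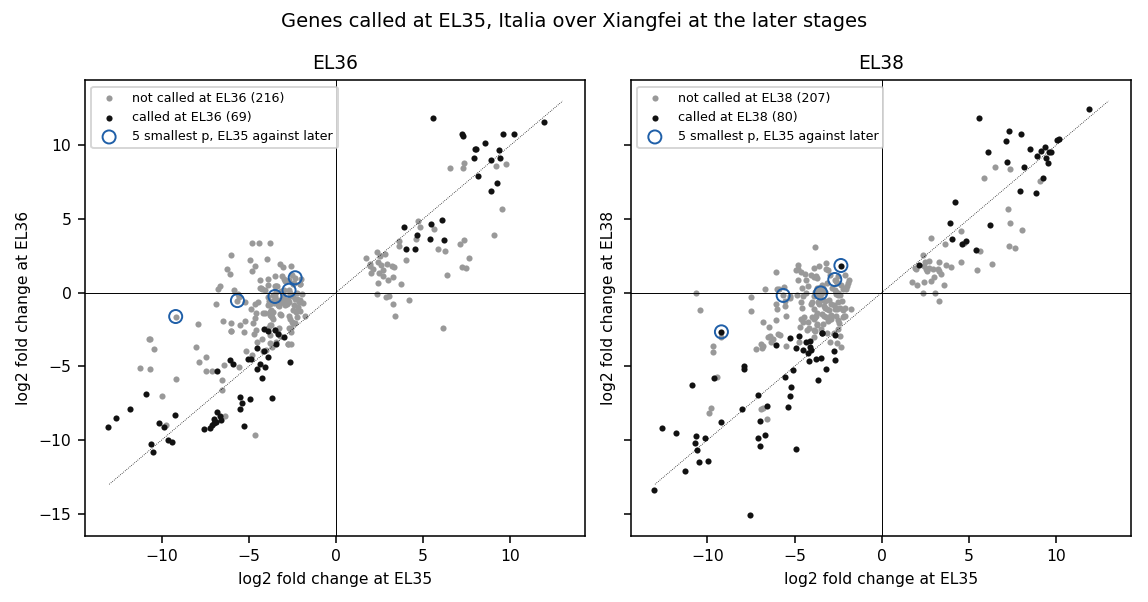
Log2 fold change of Italia over Xiangfei at EL36 (left) and EL38 (right) on the y axis against that at EL35 on the x axis, for the genes called at EL35, with 1 point a gene and those called at the later stage in black. The dotted line is that of equal change, 39 of the 227 lower genes are within 1 of 0 at both later stages, and circles mark the 5 genes with the smallest p for EL35 against the later stages.

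The genes called were also looked up in Zaomeiguixiang, whose samples enter no value of the comparison, from EL35 to EL38. Of the 227 genes lower in Italia 209 were tested there, and 27 (12.9%) fell and 6 rose, with a median log2 change of -0.47. Of the 75 higher in Italia 60 were tested, and 1 fell and none rose (edgeR), with a median of 0.00. In that fit 797 of 17702 genes (4.5%) were called, 2.71% falling and 1.79% rising, and of the genes also tested between the cultivars 2.95% fell and 1.2% rose, with a median of -0.05. Zaomeiguixiang EL35 replicate 3 also held seed transcripts, at 1.6% of its counts. Without it 17 of 208 lower genes (8.17%) fell and 3 rose, against 1.61% and 0.708% of all genes. No test was made of these shares.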

How the data were processed

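RNA of grape berries was sequenced, and each sample's file gave a value per gene. Before deposit the authors filtered the reads, searched for further transcripts with HISAT on the V2 grapevine genome, mapped the reads to the reference and added transcripts with Bowtie2, and estimated expected counts per gene with RSEM, sample by sample. The deposited FPKM values are the same estimates scaled by transcript length and library size. Whether the kit marked strand is not given in the sources used here. Genes absent from a file were counted as 0. Replicates were compared as the labels number them, and where they do not come from separate vines the p-values measure technical spread.

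Expected counts of 27096 genes were rounded, filtered with filterByExpr, scaled by TMM and tested with edgeR's quasi-likelihood test (edgeR 4.0.16, R 4.3.3), with no covariate. A fit of 18 samples tested the cultivar difference at EL35 against the mean of EL36 and EL38. Standard errors are the log2 fold change divided by the root of F. Alternatives used DESeq2 1.42.0 and limma 3.58.1 on log2(FPKM + 1). Tables were made with Python 3.11.15 and pandas 2.3.3, and the scripts were tested on simulated data. The simulated replicates varied less than the real ones, whose common dispersion (edgeR's measure of that spread) was 0.438. That test therefore does not show how genes are called at the spread of these data. Folds against a group at 0 used a floor of 3 counts per library, and intervals (Clopper-Pearson, 95%) and floors cover counting error only. The members, the 34 gene lists and the rule for named genes were chosen with earlier results of these data known. The rule took, in each direction, the 12 called genes with the smallest p and the 5 with the largest FPKM difference, up to 3 per list, the DXS genes, up to 10 in each direction called only without Italia replicate 3, and the 5 with the smallest p for EL35 against later stages. CHS3, the families and other genes outside it were chosen after their values were seen.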

Additional observations from a re-analysis of the deposited data

Results flagged for a closer look

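The cultivar difference at EL35 differed from that at EL36 and EL38 in 28 genes by the test of that difference (edgeR, 18 samples). For the 5 genes with the smallest p the log2 difference at EL35 minus the mean of the later ones was -7.11 for LOC100260154 (phenylalanine N-monooxygenase, adjusted p = 0.00404), -3.41 for LOC100245312 (adjusted p = 0.00572), -5.34 for LOC100245885 (tryptophan aminotransferase, adjusted p = 0.00572), -3.28 for LOC100261098 (chorismate mutase 2, adjusted p = 0.00572) and -3.83 for LOC100266380 (adjusted p = 0.00769). All 5 were lower in each Italia sample than in each Xiangfei sample at EL35. LOC100260154 had 0, 0 and 2 counts in Italia at EL35, so the size of its difference is uncertain. At EL38 LOC100266380 was called higher in Italia (log2 fold change 1.84, adjusted p = 0.0449).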

How the results depend on the processing

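The 302 genes called at EL35 became 1221 with DESeq2, 727 with all 27 samples in 1 fit (273 shared) and 0 at an adjusted p of at most 0.001 in edgeR. Leaving out 1 sample gave 24 to 451. With the replicate number as a replicate block 77 were called, 70 of them shared. The correlation of deviations from the group mean was -0.223, 0.231 and -0.219 for samples of the same number, and -0.272 to 0.314 for samples of different numbers. With 3 samples a group these values are too few to decide whether the numbers pair the samples. Why calls were lost under the block was not tested. Without Italia replicate 3 and Xiangfei replicate 1 together, an alternative chosen after seeing the data, 671 were called, 283 shared. DESeq2's size factors (310), all genes kept whatever their counts (360), the genes of the reference alone (285), limma (387) and no minimum fold (302) stayed within 1.5 times. The 28 genes of EL35 against later stages, 27 of them more negative at EL35, became 813 with DESeq2 (425 more negative, 388 more positive). They became 84 with no filter (65 and 19), 6 with the replicate block and 4 to 40 without 1 sample. Genes called at all 3 stages were 50, and 229 with DESeq2. The seed share in Italia replicate 3 was 7.16% of counts, 7.97% of FPKM and 4.79% for storage proteins alone. The 27 genes falling in Zaomeiguixiang became 17 without its EL35 replicate 3, also chosen after seeing the data. Of the 89 named genes that were called, 35 kept the call under the block, 71, 24 and 19 without Xiangfei replicate 1, 2 and 3, and 42, 32 and 85 without Italia replicate 1, 2 and 3. None reversed in any alternative, which the lack of overlap between the groups had all but fixed beforehand. No alternative varied the depth.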
